A study of Canis lupus familiaris with 12 samples.

Results

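Intronic circRNAs are circular RNAs whose back-splice junction is assigned to an intron of the host gene. The junction table of rapidly paced and control dog atria listed 15990 circRNAs, and all that its class column called intronic were taken here, except the 4 of the gene ENSCAFG00000014025. This gave 508 intronic circRNAs, 3.18% of all, from 403 host genes. Together they had 2681 junction reads, 1.47% of the reads in the table. The other classes in the table were exonic (11060), sense overlapping (3025), intergenic (720) and antisense (673).

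When an intron is removed, it first forms a lariat, a loop closed at the branch point near its 3′ end. The debranching enzyme DBR1 normally opens this loop, after which the intron is degraded. Some lariats escape debranching, lose their tail and persist as stable circular intronic RNAs, many of which stay in the nucleus. Intronic sequence is also found in circles made by back-splicing, in which a downstream splice site is joined to an upstream one, and find_circ, the program used for this table, searches for junctions of this kind.

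Total RNA was depleted of ribosomal RNA and sequenced from the right atria of mongrel dogs of either sex, whose age is not given in the sources used here. The 3 dogs of the pacing group (P1, P2 and P3) had continuous rapid right atrial pacing for 14 days, and the 3 dogs of the control group (C1, C2 and C4) carried the same pacemaker without stimulation. Dogs of both groups were otherwise healthy and had the same anesthesia, surgery and antibiotic. Each library came from a separate dog, and each value is the number of reads across 1 junction in 1 library. No value of 1 occurs in the table, so a circRNA listed at 0 may have had 0 reads or 1.

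The libraries held 22987 to 24782 junction reads in the controls and 28963 to 41299 in the pacing group. Library C4 stood apart. The tables name it as a control, whereas the sample labels give a sample with this title as paced. NPPA, the atrial natriuretic peptide, was at 7.78 FPKM (fragments scaled to transcript length and library size) in C4 and at 1658 to 8496 FPKM in the other libraries. The summed level of the 4 measured atrial muscle markers was 28.2 FPKM in C4 and 2655 to 15530 FPKM elsewhere, and that of 4 ventricular markers was 7995 FPKM in C4 and 194 to 852 FPKM elsewhere. Summed adipocyte markers were at 523 FPKM in C1 and 215 FPKM in C2, against 0.813 to 7.16 FPKM in the other 4 libraries. The part of these differences in the results below was not tested, but the class shares, the calls and the comparison with the exonic class were repeated without C4, and the shares and calls also with C4 moved to the pacing group. In these bulk samples, fewer cells of a type and less RNA per cell cannot be told apart.

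The intronic circRNAs were mostly seen once. Of the 508, 468 (92.1%) were listed in 1 library, and 335 of these had just 2 reads. A further 18 were listed in 2 libraries, 6 in 3, 6 in 4, 3 in 5 and 7 in all 6 libraries. The 40 that were listed in 2 or more libraries held 1464 reads, 54.6% of the intronic total. The 7 listed everywhere held 1135 reads (42.3%), and the 3 with the most reads held 897 (33.5%). The intronic class was therefore a long list of junctions with very few reads beside a handful of abundant ones. Among the intronic circRNAs seen in a single library the highest count was 12 reads, and 27 had 5 reads or more. The share listed in 1 library was 93.3% for antisense, 85.1% for intergenic, 76.1% for sense overlapping and 65.2% for exonic circRNAs.

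The number of listed intronic circRNAs was 71 in C1, 67 in C2 and 109 in C4, and 80 in P1, 123 in P2 and 153 in P3. Between 68.7% (C2) and 81.1% (P3) of them were listed in that library alone. Intronic circRNAs took 1.15% of the junction reads in C1 (264 reads, 95% Wilson interval 1.02 to 1.29%), 1.26% in C2 (313 reads, 1.13 to 1.41%) and 1.71% in C4 (404 reads, 1.55 to 1.88%). In the pacing group they took 1.39% in P1 (403 reads, 1.26 to 1.53%), 1.47% in P2 (604 reads, 1.36 to 1.59%) and 1.68% in P3 (693 reads, 1.56 to 1.81%). These intervals cover counting error only. The highest and the lowest share both belonged to control libraries, so the groups overlapped.

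**Figure D1:**
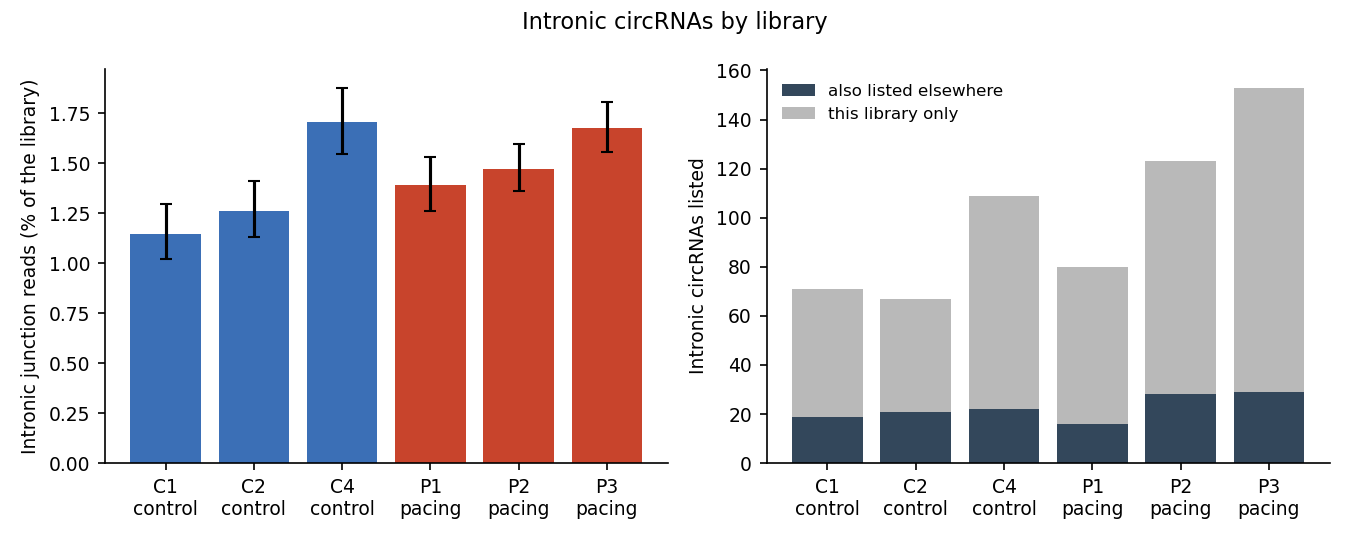
Share of junction reads taken by intronic circRNAs in each library with its 95% Wilson interval (left, percent), and the number of intronic circRNAs listed, split by whether another library listed them too (right). The share ran from 1.15% in C1 to 1.71% in C4, both controls, and 46 (C2) to 124 (P3) of the circRNAs in a library were listed there alone.

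The share of reads was 1.37% ± 0.295 in the controls and 1.51% ± 0.148 in the pacing group (mean and SD over 3 dogs in each group). The difference of 0.142 percentage points was smaller than the spread between libraries (exact permutation test, 2-sided, p = 0.5, where 3 against 3 cannot go below 0.1). Without C4 the difference was 0.309 points, with both remaining controls below every pacing library (exact permutation p = 0.1, the smallest possible), and 0.357 points where C4 was moved to the pacing group (exact permutation p = 0.133). The difference was smaller, at 0.0296 points without C1 (exact permutation p = 1), 0.0868 points without C2 (exact permutation p = 0.9) and 0.0598 points without P3 (exact permutation p = 0.8). It was larger, at 0.203 points without P1 (exact permutation p = 0.5) and 0.162 points without P2 (exact permutation p = 0.6). With the junction reads annotated to MYH7 left out, it was 0.243 points (exact permutation p = 0.3). Without the intronic circRNA with the most reads, but with C4 as control, the difference was 0.039 points (exact permutation p = 0.9). Of the listed circRNAs, 2.17% ± 0.413 were intronic in the controls and 2.33% ± 0.444 in the pacing group (exact permutation p = 0.7). After random thinning of every library to the smallest total, this difference turned from 0.163 to -0.194 points (exact permutation p = 0.6). Without C4 it was 0.378 points (exact permutation p = 0.4). With C4 as labelled in the tables, the groups overlapped on both measures.

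Compared with the exonic circRNAs of the same library, intronic circRNAs recurred less often, had fewer reads each and spanned less of the genome. In each library, 19.0% to 31.3% of the listed intronic circRNAs were also listed in another library, against 61.3% to 66.5% of the exonic ones. The mean over the libraries was 23.3% ± 4.83 and 63.1% ± 1.84 (SD, n = 6), a difference of -39.8 points that was lower in 6 of 6 libraries (2-sided exact sign-flip permutation test, p = 0.031, the smallest this design allows). That p, adjusted over the 12 comparisons made between classes, was 0.0469 in the exact permutation test. Libraries share junctions, so the 6 values are not fully independent of each other. The difference was -37.3 points after thinning to equal depth. With only listings of 5 or more reads counted, it narrowed to -11.1 points, still lower in 6 of 6 libraries (exact sign-flip permutation p = 0.031). Much of the gap thus went with junctions of few reads.

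The mean number of junction reads for each listed circRNA was 4.43 ± 0.583 for the intronic and 5.37 ± 0.641 for the exonic class, and lower for the intronic class in 6 of 6 libraries (exact sign-flip permutation p = 0.031, adjusted p = 0.0469). This order rested on the junctions with few reads. Among circRNAs with 5 or more reads in a library, the intronic mean was higher by 4.86 reads, in 5 of 6 libraries (exact permutation p = 0.0625). The class thus held relatively few circRNAs with 5 or more reads in a library, and a handful of these were abundant. The mean at 5 or more reads was not computed without the 3 intronic circRNAs that held 897 reads. Without the 7 listed in every library, the intronic mean was 2.61 reads below the exonic mean in the main comparison. The exonic class kept its 426 circRNAs listed in every library, so this wider gap is not a comparison of like with like.

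The median genomic span, the distance between the 2 ends of a junction, was 650 ± 86.0 nucleotides for intronic and 9505 ± 359 nucleotides for exonic circRNAs. It was shorter in 6 of 6 libraries (exact sign-flip permutation p = 0.031). A circRNA that lies within 1 intron is bounded by its length, so part of this difference may follow from how the class is defined. The label did not always mean this, since the intronic circRNA at chr2:12124574-12151518 of the gene NEBL enclosed exonic circRNAs of NEBL. Of the intronic circRNAs 25.2% spanned 200 nucleotides or less, against 1.33% of the exonic ones. The antisense class was close to the intronic one at 22.6%, and the intergenic class had 12.9%.

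Of the other classes, the antisense class was nearest to the intronic one. Its mean reads and span could not be told from those of intronic circRNAs at this number of libraries. The intronic mean reads differed from the antisense mean by 0.356 (exact sign-flip permutation p = 0.656), the median span by -24.8 nucleotides (exact permutation p = 0.812) and the recurrence by 5.26 points (exact permutation p = 0.0625). The differences varied between libraries with an SD of 1.61 reads, 207 nucleotides and 4.26 points. Compared with intergenic circRNAs, intronic circRNAs recurred less often by 12.7 points and had a median span that differed by -1223 nucleotides, both lower in 6 of 6 libraries (exact sign-flip permutation p = 0.031, adjusted p = 0.0469). Their mean reads were higher than the intergenic mean by 0.826 in 5 of 6 libraries (exact permutation p = 0.0625). The comparisons with the classes other than exonic were added beside the exonic one.

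**Figure D2:**
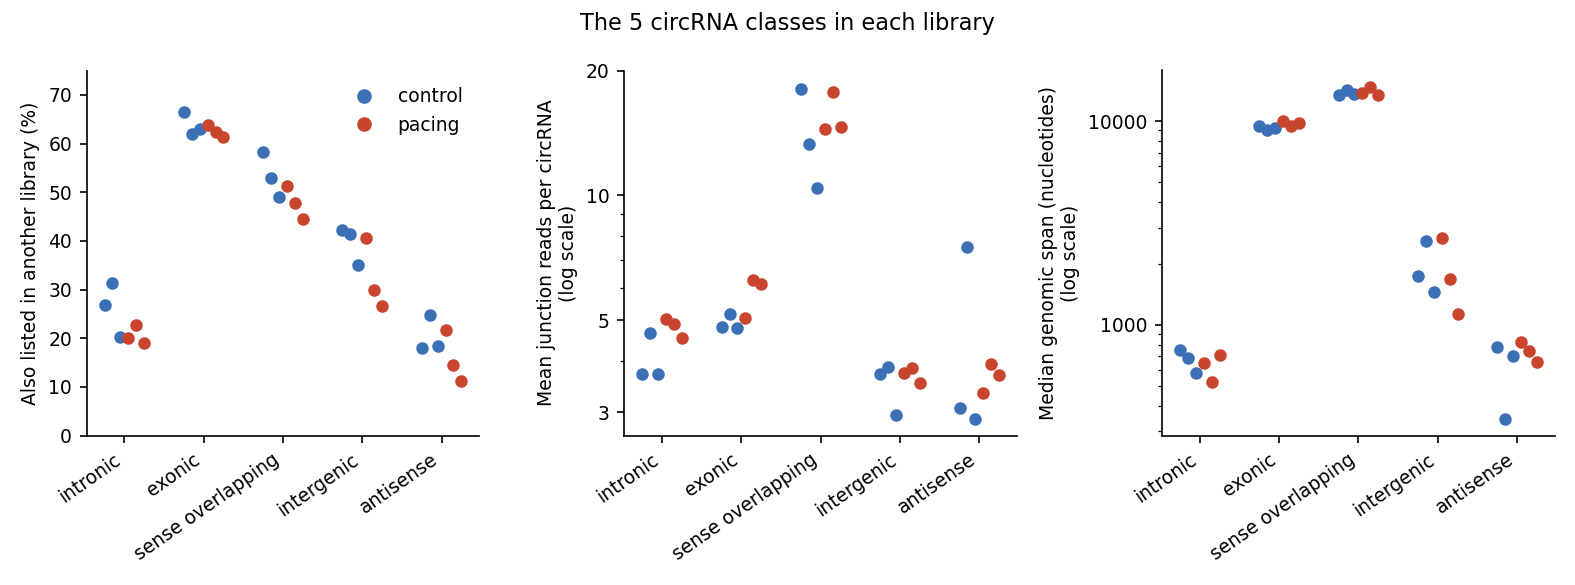
Each point is 1 library (within a class from left to right C1, C2, C4, P1, P2, P3, control in blue and pacing in red), for the percentage of listed circRNAs that another library also listed, the mean junction reads for each listed circRNA (log scale) and the median genomic span in nucleotides (log scale). Intronic circRNAs recurred in 19.0% to 31.3% of cases and exonic ones in 61.3% to 66.5%, while the antisense class overlapped the intronic one on all 3 measures.

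Over all 508, the shortest span was 79 and the longest 63709 nucleotides. The median was 530.5, with quartiles of 199 and 1972. The predicted length in the table equaled the genomic span for all 508, so no internal splicing was taken off. The shortest, at chr6:50055304-50055382 in the host ENSCAFG00000040901, had 2 reads in C4. The longest, at chr18:49084623-49148331 in TESMIN, a gene named for its expression in testis, had 2 reads in C2 and 2 in C4. Recurrence was set out by span as a description, without a test. Of the 128 that spanned 200 nucleotides or less, 3 (2.34%) were listed in more than 1 library. Among the 41 that spanned over 10000 nucleotides, 9 (22.0%) were. The short ones held 13.1% of the intronic reads and the long ones 27.5%.

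**Figure D3:**
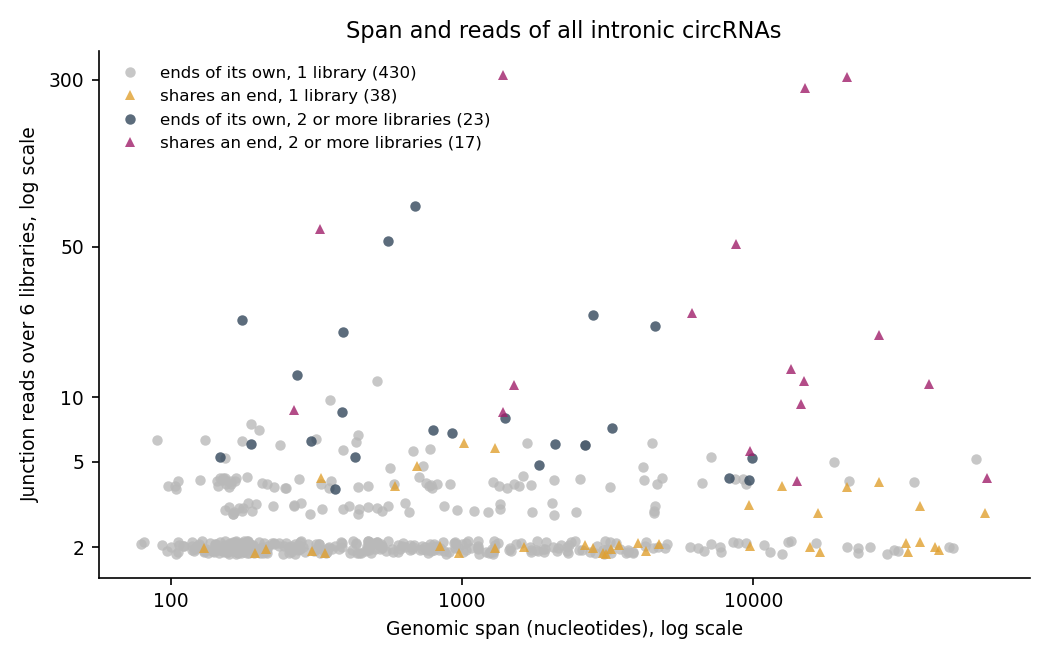
Genomic span in nucleotides against junction reads summed over 6 libraries for all 508 intronic circRNAs (both log scales, points moved slightly up or down so that equal counts can be seen), where triangles share an end with another circRNA and dark colors mark those listed in 2 or more libraries. Most points lie at 2 reads, and the 3 points near 300 reads share an end.

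Some of the recurrent intronic circRNAs, among them the 3 with the most reads, used an end that another circRNA also used. Of the 508, 55 (10.8%) shared an exact start or end with another circRNA of the table, against 66.3% of exonic and 6.09% of antisense circRNAs. These 55 held 1246 reads, 46.5% of the intronic total. Of the 55, 17 (30.9%) were listed in 2 or more libraries, against 23 of the 453 (5.08%) with ends of their own. Their median span was 4763 nucleotides against 474 nucleotides for the rest.

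The class label was checked against these ends. Of the intronic circRNAs, 14 had an end that an exonic circRNA of the table also used. For 9 of these the exonic circRNA belonged to another host name. For the rest it belonged to the same host, NEBL or LATS1, and the NEBL circRNA at chr2:12124574-12151518 was among them. SBNO1, which encodes a homolog of the fly protein strawberry notch, gave 2 intronic circRNAs that shared an end with exonic circRNAs of MPHOSPH9. A circRNA of COL4A2, a collagen chain of basement membranes, shared an end with an exonic circRNA of NAXD, an enzyme that repairs hydrated NADH. For the 9, the intronic class was assigned for the named host, while circles with the same end were classed as exonic in another gene. Exon positions were not examined. A further 10 intronic circRNAs shared an end with a sense overlapping circRNA, among them those of ZEB1 with 291 and 290 reads. By overlap on the same strand, 12 intronic circRNAs lay over an exonic circRNA of another host. No genome of the files' build was given, so splice sites and branch points at the ends were not examined.

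The intronic circRNA with the most reads was at chr21:37053360-37054743, on the minus strand of the dog genome canFam3, with a span of 1384 nucleotides. Its host is ENSCAFG00000030201, a gene without a symbol in the files. It had 31 reads in C1, 30 in C2 and 20 in C4, and 76 in P1, 58 in P2 and 101 in P3. Scaled to RPM, the reads per 1000000 junction reads of the library, this was 1349, 1211 and 845 RPM in the controls and 2624, 1415 and 2446 in the pacing group. All 3 pacing libraries were above all 3 control libraries, although P2 was close to C1. The fitted log2 fold change was 1.19 (SE 0.65), which did not pass the test (edgeR quasi-likelihood, unadjusted p = 0.066, adjusted p = 0.401 over all circRNAs).

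The mRNA of ENSCAFG00000030201 was listed at 0 FPKM in 5 of the 6 libraries and at 0.316 FPKM in C2. RRAS2, a small GTPase related to Ras that the mRNA table places in the same merged locus and strand, was at 72.3, 188 and 78.9 FPKM in the controls and 151, 113 and 132 FPKM in the pacing group. A second intronic circRNA of ENSCAFG00000030201, at chr21:37041265-37054743, ended at the same base and had 3 reads in C4, 2 in P1, 4 in P2 and 4 in P3. Its other end was that of an exonic circRNA of RRAS2 with 2 reads. Of the 5 intronic circRNAs named for ENSCAFG00000030201, 3 had 2 reads each. Which of the genes the abundant circle derives from cannot be told apart from the junction table alone.

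ZEB1, a zinc finger transcription factor of epithelial to mesenchymal transition, gave the most intronic reads of any host, 624 over 6 circRNAs. Its 4 exonic circRNAs had 29 reads. The circRNA at chr2:15416491-15437525 on the minus strand, which spanned 21035 nucleotides, had 17 reads in C1, 28 in C2 and 61 in C4. P1 had 56 reads, P2 had 52 and P3 had 77. Among the controls C4 was high, and its 2577 RPM were the highest of all libraries. The log2 fold change was 0.46 (SE 0.64, edgeR, adjusted p = 0.582). It was 1.12 without C4 (edgeR, unadjusted p = 0.0616) and 0.04 without C1, so single controls set its size.

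The circRNA at chr2:15422510-15437525 shared its 5′ end and spanned 15016 nucleotides. It had 30, 35 and 57 reads in the controls and 26, 79 and 63 in the pacing group. Here P1 was the lowest of all libraries by RPM and C4 again the highest, so the groups overlapped fully. Its log2 fold change was 0.05 (SE 0.64, edgeR, adjusted p = 0.971) and turned negative under other scalings.

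Another ZEB1 circRNA, at chr2:15416491-15422652, had 0, 10 and 2 reads in the controls and 3, 2 and 8 in the pacing group. Its lower coordinate is that of the 21035-nucleotide circRNA, and it overlaps the 15016-nucleotide circRNA by the 143 nucleotides from 15422510 to 15422652. Both of these lower coordinates were also joined to 15456521, in a circRNA of 40031 nucleotides with 4 reads in C4 and 8 in P2 and in a circRNA of 34012 nucleotides with 2 reads in P1. Thus 5 of the 6 ZEB1 circRNAs joined 2 lower to 3 upper coordinates, and the only combination that was not listed is the block of 143 nucleotides. The last circRNA, with 4 reads in C2, ran from 15416464 to 15437525. The mRNA of ZEB1 was at 55.5, 60.9 and 64.4 FPKM in the controls and 60.4, 48.2 and 64.9 FPKM in the pacing group, with no difference past the test (limma, adjusted p = 0.966).

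RBM20, the splicing regulator of titin in heart muscle, gave 8 intronic circRNAs with 84 reads, against 11 reads in 4 exonic ones. The most abundant, at chr28:21980147-21988878 with a span of 8732 nucleotides, had 8, 3 and 15 reads in the controls and 6, 17 and 3 in the pacing group. By RPM, C4 was the highest and P3 the lowest library. Its start was used by 3 more intronic circRNAs with spans of 1386, 14094 and 14931 nucleotides. The longest of these had 12 reads in 4 libraries, C2, C4, P2 and P3. RBM20 mRNA was at 43.1, 52.2 and 52.4 FPKM in the controls and 41.0, 32.4 and 53.1 FPKM in the pacing group (limma, adjusted p = 0.901).

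YAF2, a partner of the Polycomb protein RING1 and of YY1, gave 4 intronic circRNAs with 80 reads and no exonic one. The circRNA at chr27:11700024-11700349, with a span of 326 nucleotides, had 7, 8 and 4 reads in the controls and 12, 14 and 17 in the pacing group. By RPM every pacing library was above every control library, but P2 exceeded C2 only slightly. The log2 fold change was 0.81 (SE 0.87, edgeR, unadjusted p = 0.355). A 265-nucleotide circRNA with the same end, at chr27:11700085-11700349, had 2 reads in each control library, 0 in P1 and P2 and 3 in P3. By RPM each pacing library was below each control library. The other 2 YAF2 circRNAs joined the same 2 starts to an end at 11709757 and had 6 and 3 reads, so the 4 circRNAs were all the combinations of 2 starts and 2 ends.

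**Figure D4:**
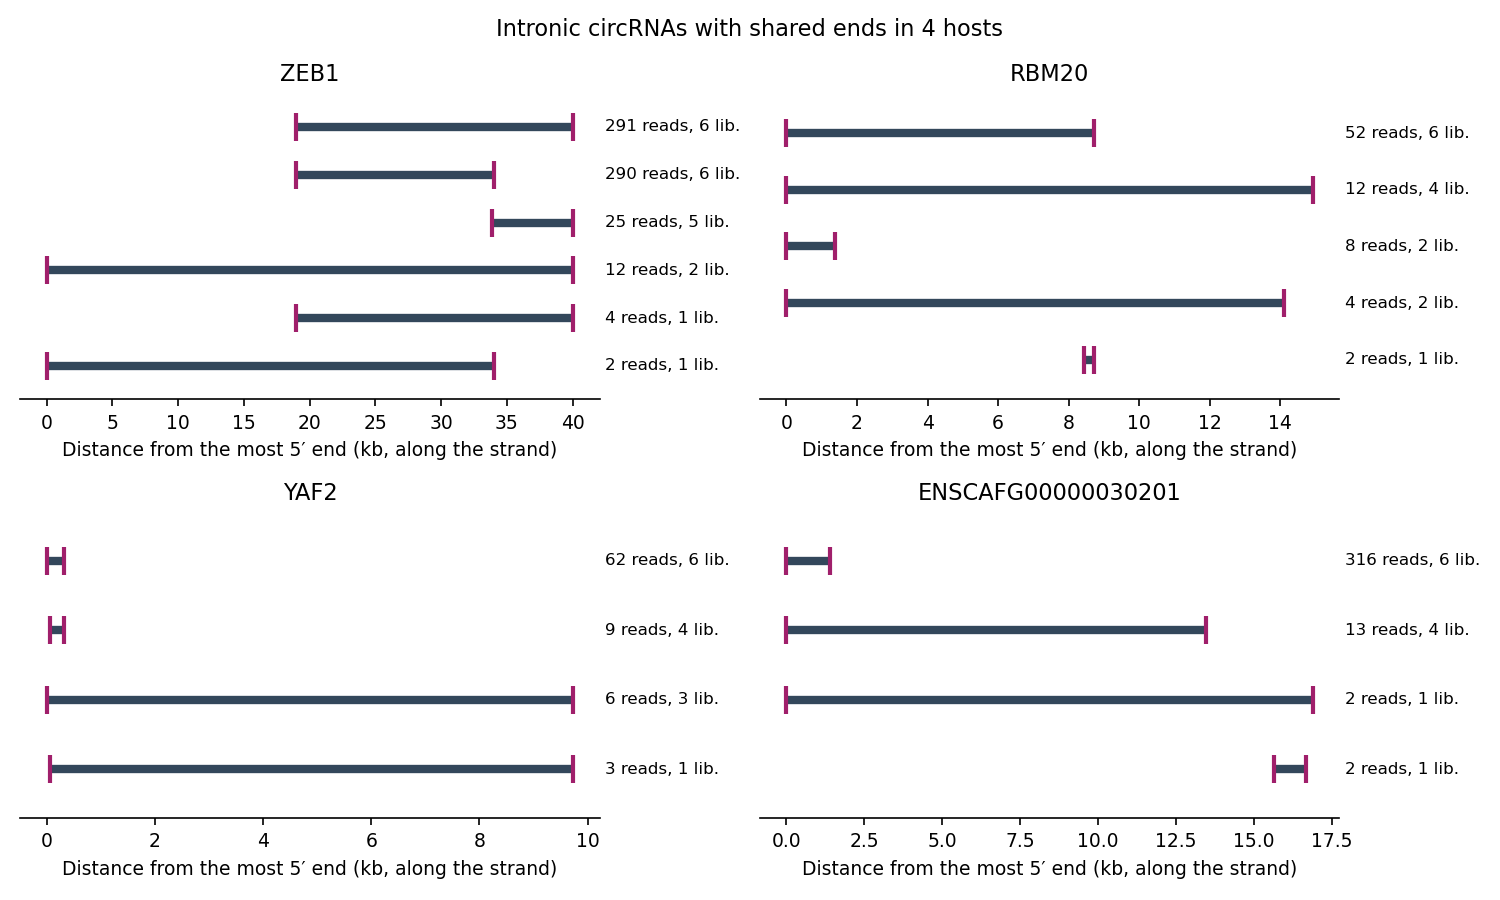
Intronic circRNAs of ZEB1, RBM20, YAF2 and ENSCAFG00000030201 drawn as bars between their 2 ends (x axis, distance in kb along the strand from the most 5′ end shown), with the reads over all libraries and the number of libraries beside each bar; 3 circRNAs of RBM20 and 1 of ENSCAFG00000030201 that lie outside the window are left out. The abundant ZEB1 circRNAs with 291 and 290 reads begin at the same end, 4 RBM20 circRNAs begin at 1 start, and the YAF2 bars combine 2 starts with 2 ends.

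The other intronic circRNAs listed in every library had ends of their own. LINC00935, whose symbol is that of a long non-coding RNA in human, gave the circRNA at chr27:5763486-5764176 with 3, 13 and 9 reads in the controls and 13, 11 and 24 in the pacing group. The gene itself was at 0 to 1.88 FPKM. COL5A3, a fibrillar collagen chain, gave the circRNA at chr20:51045019-51045576 with 6, 7 and 7 reads in the controls and 12, 15 and 4 in the pacing group. For both circRNAs the groups overlapped.

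**Figure D5:**
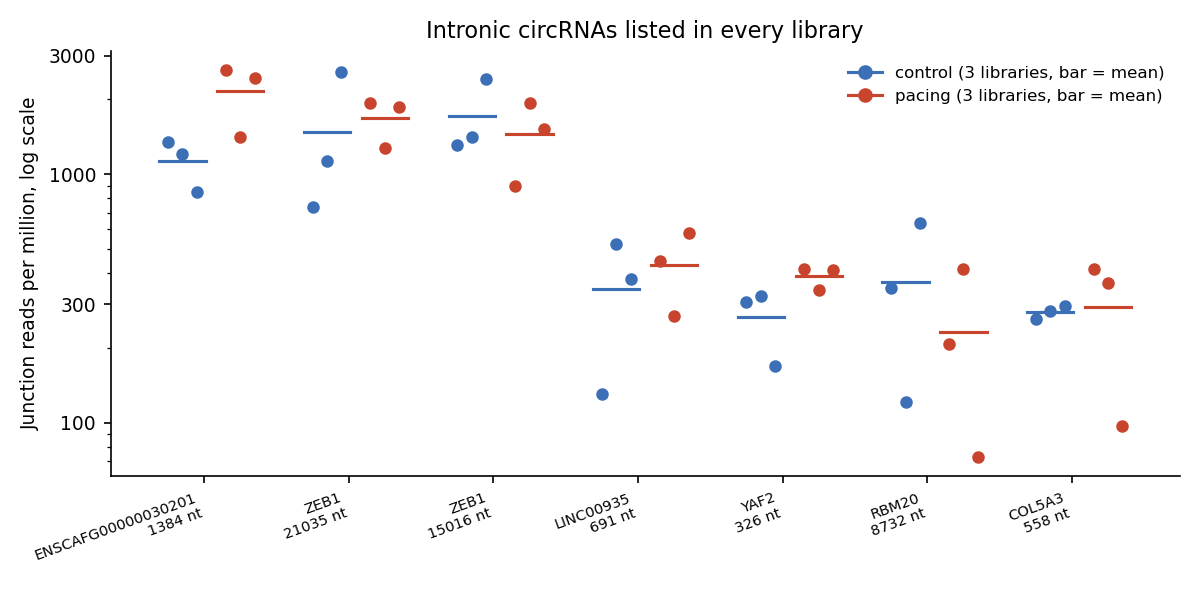
Junction reads in RPM (log scale) of the 7 intronic circRNAs listed in every library, with each library as a point, the group mean as a bar, and the host and span under each. The pacing points lie above all control points only for the circRNA of ENSCAFG00000030201 and the one of YAF2, and in neither case did the difference pass the edgeR test.

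Next in abundance were circRNAs that were at 0 in 1 or more libraries. CCDC141, a coiled-coil protein, gave a circRNA at chr36:22587020-22589832 with 4, 0 and 0 reads in the controls and 0, 9 and 11 in the pacing group. CPNE1, a calcium-dependent membrane-binding copine, gave one at chr24:24579273-24583881 with 2, 5 and 2 reads in the controls and 0, 7 and 7 in the pacing group. UGCG, which makes glucosylceramide, gave one at chr11:66468167-66468342 with 3, 7 and 2 reads against 0, 8 and 2. In these 3 circRNAs P1 was at 0 and the groups overlapped. PPP3CC, a catalytic subunit of calcineurin, gave a circRNA at chr25:34749416-34749805 with 0, 0 and 2 reads in the controls and 4, 10 and 4 in the pacing group. There every pacing library was above every control library by RPM (edgeR, unadjusted p = 0.141).

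At the thresholds of the study, which ask for at least a 2-fold change at an unadjusted p up to 0.05, 2 intronic circRNAs (0.394%) were higher in pacing, against 0.663% of all circRNAs tested. None was lower, against 0.356% of all. At an adjusted p of 0.05, 0 intronic circRNAs passed with edgeR, against 0.05% of all, and 2 had an unadjusted p of 0.05 or less at any fold. With DESeq2, 0 intronic circRNAs passed the thresholds, against 0.15% of all in either direction, and 0 of all circRNAs passed the adjusted p. Intronic circRNAs were thus called at a share no larger than the table as a whole. Of them, 65.9% had 2 reads in total, against 42.8% of exonic circRNAs, which leaves little room for a call. These shares are therefore not read as a result about the class. Of the fitted changes, 60.0% were positive, against 57.5% over all circRNAs. For the 468 intronic circRNAs listed in 1 library, the sign only gives the group of that library. The pacing libraries held more junction reads than the controls. Because 479 of the 508 were at 0 in all libraries of a group, no median fold change is given.

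The first of the 2 belonged to NEBL, which encodes nebulette, a Z-disc protein of heart muscle. Its circRNA at chr2:12124574-12151518 had 0 reads in all 3 control libraries and in P1, 7 in P2 and 13 in P3. With 3 reads taken as the floor over the control group, pacing was at least 4.28-fold higher (edgeR, unadjusted p = 0.014, adjusted p = 0.401). The reads lay in the 2 deepest libraries, and P1 was like the controls. The call was lost without P3 (edgeR, unadjusted p = 0.19), without P2 (edgeR, unadjusted p = 0.0518) and with DESeq2 (unadjusted p = 0.211). The end of the called circRNA, at 12151518, was also used by exonic circRNAs of NEBL. These started inside its span, at 12126951, 12133518 and 12150346. Another 5 intronic circRNAs of NEBL had 13 reads in all, 11 of them in P3. NEBL mRNA was at 209, 99.5 and 276 FPKM in the controls and 195, 249 and 371 FPKM in the pacing group (limma, adjusted p = 0.892).

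The second, at chr27:22903129-22903400, belonged to the long non-coding gene ENSCAFG00000039209. It had 0 reads in all 3 control libraries, 4 in P1, 2 in P2 and 7 in P3. Pacing was at least 2.78-fold higher than the floor of 3 reads over the control group (edgeR, unadjusted p = 0.049, adjusted p = 0.401). The host was listed at 0 FPKM in every library. This call was lost in every alternative that was run, among them the fits without C4 and with C4 as pacing.

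Without regard to the test, 5 intronic circRNAs (0.984%) were higher in every pacing library than in every control library by RPM, against 1.06% of all circRNAs. Besides those of ENSCAFG00000030201, YAF2, PPP3CC and ENSCAFG00000039209, this held for a circRNA of ZCCHC7 at chr11:53475007-53475309 with 0 reads in the controls and 2 in each pacing library. ZCCHC7 is a zinc knuckle protein of the nuclear RNA surveillance complex TRAMP. In the other direction 2 (0.394%) did not overlap, against 0.575% of all. These were the 265-nucleotide circRNA of YAF2 and one of ENSCAFG00000031146 at chr23:52146967-52147892, with 3, 2 and 2 reads in the controls and 0 in each pacing library.

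Most hosts gave a single intronic circRNA. Of the 403 hosts, 356 gave 1, 34 gave 2, and 13 gave 3 or more with 84 circRNAs among them. The host with the most was the long non-coding gene ENSCAFG00000038408 on chromosome 18, with 18 intronic circRNAs and 53 reads. All 18 were listed in just 1 library, with 2 to 7 reads, and no exonic circRNA was listed for it. Of these, 16 lay within the stretch from 51700792 to 51707279. The gene was at 48.7, 43.5 and 40.6 FPKM in the controls and 56.8, 33.1 and 25.1 FPKM in the pacing group. ZEB1 and ENSCAFG00000038408 thus stood at opposite ends, the first with 624 reads in 6 circRNAs of which 4 were listed in 2 or more libraries, and the second with many circRNAs that did not.

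Hosts of intronic circRNAs were well expressed. For the 371 hosts in the mRNA table, the median level was 13.8 to 17.9 FPKM over the libraries, against 10.2 to 13.6 FPKM for hosts of exonic circRNAs and 1.25 to 2.45 FPKM for all mRNAs. At least 1 FPKM was reached by 88.4% to 92.2% of the intronic hosts and by 51.9% to 58.6% of all mRNAs. The other 32 hosts, with 51 intronic circRNAs, were in the lncRNA table. An exonic circRNA was also listed for 221 of the 403 hosts, which gave 281 (55.3%) of the intronic circRNAs. Of all intronic circRNAs 64 lay inside the span of an exonic circRNA of the same host.

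All 38 autosomes carried an intronic circRNA, and 491 of the 508 lay on them. The X chromosome carried 16, an unplaced scaffold 1 and the mitochondrial genome 0. Chromosome 18 carried the most (35), of which 18 were those of ENSCAFG00000038408. Chromosome 2, with ZEB1 and NEBL, followed with 34 and came first by reads (722). The plus strand held 238 and the minus strand 270.

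Among genes of the contractile apparatus, NEBL led by intronic reads. Of 32 sarcomere and Z-disc genes, 5 gave 16 intronic circRNAs with 56 reads, and 13 gave exonic circRNAs. NEBL had 33 of these reads. PDLIM5, a Z-disc adaptor of the PDZ-LIM family, had 15 reads in 6 circRNAs, each listed in 1 library. PALLD, an actin-binding protein, had 4 reads and MYBPC3, the cardiac myosin-binding protein C, had 2. In this list 1 circRNA, that of NEBL, was higher in pacing at the thresholds of the study, against 0.663% of all circRNAs, and none was lower, against 0.356% of all. As given above, this call rested on P2 and P3.

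Of 32 genes of calcium handling and ion channels, 8 gave 21 intronic circRNAs with 63 reads. PDE3A, a phosphodiesterase that limits cyclic AMP in heart muscle, had 21 reads in 5 circRNAs, with 10 reads in C1, 7 in P2, 4 in P3 and 0 in the other libraries. RYR2, through which calcium leaves the sarcoplasmic reticulum, had 8 intronic circRNAs with 19 reads, beside 70 exonic ones with 510 reads. None of the 8 was listed in more than 1 library. ATP2A2, the calcium pump of the same membrane, and CACNB2, a subunit of the L-type channel, had 6 reads each. No circRNA of this list passed the thresholds.

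Of 28 matrix and fibroblast genes, 2 gave 9 intronic circRNAs with 26 reads. LAMA2, the laminin chain of the muscle basement membrane, had 18 of these reads in 7 circRNAs, each listed in 1 library, and COL4A2 had 8 reads. The list did not cover every matrix gene. COL5A3, with 53 reads in 2 intronic circRNAs, was not on it, nor were ELN with 5 reads and COL6A5 with 4. Among genes of energy metabolism, ACACB, an acetyl-CoA carboxylase, gave an intronic circRNA with 2 reads. None of these circRNAs passed the thresholds in either direction.

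The genes that recognize branch sites and turn over lariats gave no intronic circRNA themselves, and their mRNAs were read as the machinery of lariats. Whether any of the intronic circRNAs here came from a lariat was not tested. Of 13 such genes, 11 had a value. With limma 0 of them passed an adjusted p of 0.05, against 0.0259% of all mRNAs tested, and 2 had an unadjusted p under 0.05, against 5.54% of all. DBR1, the debranching enzyme, was at 5.09, 3.28 and 2.40 FPKM in the controls and 3.54, 3.44 and 2.55 FPKM in the pacing group. The groups overlapped (limma, log2 fold change -0.10 on the log2(FPKM + 1) scale, SE 0.30, adjusted p = 0.964).

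DHX15, the helicase that takes apart the spliceosome around the excised lariat, was at 58.0, 61.3 and 48.9 FPKM in the controls and 37.0, 35.2 and 31.0 FPKM in the pacing group. All pacing libraries were below all control libraries, but the change of -0.69 (SE 0.19) did not pass the adjusted test (limma, unadjusted p = 0.00857, adjusted p = 0.879). SF1, the branch point binding protein, was at 36.8, 45.5 and 22.1 FPKM in the controls and 23.0, 18.1 and 19.9 FPKM in the pacing group. Its change was -0.69 (SE 0.29, limma, unadjusted p = 0.0476, adjusted p = 0.879), and C4 lay below P1.

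The levels of the other 9 measured lariat genes, DBR1 included, had unadjusted p-values of 0.16 or more with limma. U2AF2, which binds the polypyrimidine tract, had a log2 fold change of -0.46. SF3B1 and PRPF8, core proteins of the spliceosome, had -0.20 and -0.17, and TFIP11, the partner of DHX15, had -0.19. AQR and XAB2, which belong to the intron-binding complex, had -0.13 and -0.12. CWF19L1 and CWF19L2, relatives of a yeast lariat debranching cofactor, had -0.12 and 0.08. Of the 11 values 1 was positive, and their median was -0.17, against -0.03 over all mRNAs tested. Among the 18 hosts named for their circRNAs here and the 11 lariat genes, 27 mRNAs could be tested and 0 passed the adjusted p with limma, against 2 at an unadjusted p under 0.05. At the unadjusted level the count was 8 without C4 and 11 with C4 moved to the pacing group, and 0 passed the adjusted p in either fit. The share of all mRNAs at the unadjusted level in these fits is not given here. The 2 counts are therefore not read as a result about the hosts or lariat genes.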

How the data were processed

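The authors trimmed reads with cutadapt 1.9.3, aligned them to canFam3 with Bowtie2 and detected junctions with find_circ under Ensembl transcripts. The deposited circRNA values are raw counts of junction reads per library, without normalization. The deposited mRNA and lncRNA values are FPKM computed by the authors, whose notes name HISAT2, Cufflinks and Cuffdiff. A further 30 per-sample columns were not analysed, and fold changes and p-values of the authors in the tables were not used.

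Libraries were grouped by column name. All 15990 circRNAs were fitted with edgeR 4.0.16 (quasi-likelihood, TMM, 2-sided) in R 4.3.3, with Benjamini-Hochberg adjustment over all. The 11583 mRNAs that averaged at least 1 FPKM were fitted with limma 3.58.1 (trend) on log2(FPKM + 1). Per-library values were compared by exact permutation between groups and by exact sign flips between classes. Libraries held 22987 to 41299 junction reads, so 3 reads in a single library were 72.6 to 131 RPM (reads per 1000000 junction reads). The floor behind the fold bounds was 3 reads over the control group as a whole. Alternatives used DESeq2 1.42.0, other scalings and filters, thinning (10 draws) and each library left out. The code was tested on simulated data. Antisense and overlapping hosts cannot be separated by junction reads. Circles were named by thresholds, by the 12 highest read totals, by listing in 5 or 6 libraries, by shortest and longest span, by host (up to 8 with 3 or more) and by list; others were chosen after their values were seen. Members and lists were chosen with earlier results of these data known. A result from the list of energy metabolism genes is not reported here.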

Additional observations from a re-analysis of the deposited data

How the results depend on the processing

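The 2 calls higher in pacing became 1 with the RLE scaling, with library totals and with a minimum of 10 reads (20 intronic circRNAs tested), 0 with DESeq2 and 0 at an adjusted p of 0.05. The count was 2 with C4 as pacing, and 0 to 2 with a library left out (2 without C1 or C4, 0 without P3), but not of the same circRNAs. PPP3CC took the place of ENSCAFG00000039209 beside NEBL without C4 and with C4 as pacing, CCDC141 did so without C1, and the single call without P2 was ENSCAFG00000030201. Of the alternative values for single circRNAs, 114 kept their direction and their side of the threshold, 22 turned sign, 14 lost a call and 4 gained one. No host or lariat mRNA passed the adjusted p with limma in any setting (smallest adjusted p = 0.11, with C4 as pacing). Calls lower in pacing stayed at 0 throughout. The pacing minus control share of listed circRNAs (0.163 points) turned to -0.0276 at 5 or more reads and -0.194 after thinning, and ran from -0.0344 to 0.403 with a library left out (negative without P3 or C2). Intronic minus exonic recurrence (-39.8 points) narrowed to -11.1 points at 5 or more reads. Intronic minus exonic mean reads (-0.938) turned to 4.86 at 5 or more reads. With a library left out it ran from -1.12 to -0.81, recurrence from -39.9 to -36.0 points and span from -8956 to -8753 nucleotides, all at the smallest p that 5 libraries allow (exact permutation p = 0.0625). Removal of the circRNAs in every library, removal of those of ENSCAFG00000038408 and joining of junctions with both ends within 10 nucleotides (42 instead of 40 recurrent) were added after the data were seen.

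Log2 fold changes near 0 turned sign. For the ZEB1 circRNA at 15422510-15437525 the value was -0.20 with RLE, -0.23 with library totals, -0.026 at 10 or more reads, -0.20 with DESeq2, and -0.22 to 0.37 with a library left out (negative without C1, C2, P2 or P3). For that at 15416491-15422652 it ran from -0.86 to 1.62 (positive without C2 or P2). For RBM20 it ran from -1.15 to 0.26 (positive without C4 or P3) and was 0.62 with C4 as pacing, and for COL5A3 it ran from -0.0041 (without P1) to 0.74. For CPNE1 it was -0.10 with RLE, -0.11 with library totals, -0.12 with DESeq2 and -0.19 with C4 as pacing, and ran from -0.23 to 0.70 (negative without C1, C4, P2 or P3). The unadjusted edgeR p fell to 0.0494 for ENSCAFG00000030201 without P2, 0.0344 for CCDC141 without C1, and 0.0376 and 0.0329 for PPP3CC without C4 and with C4 as pacing. The causes were not tested. No paired analysis was made, since the sample titles repeat no number, each library came from a separate dog, and no source says that the 1 and 2 in the column names of both groups pair them. A circRNA with 2 reads in 1 library gives no measure of its spread between dogs.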
